A study of Mus musculus with 2 samples.

Results

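The 8 Hedgehog pathway genes, of 31057 genes counted, were followed by symbol through gated cell types of the newborn mouse ovary. They were the ligands Dhh and Ihh, the receptor gene Ptch1, the transducer gene Smo, the transcription factor genes Gli1, Gli2 and Gli3, and Hhip, whose product binds and holds back Hedgehog ligands. Each symbol stood for 1 identifier. A Hedgehog ligand binds the receptor PTCH1, which otherwise keeps the membrane protein SMO silent, and released SMO turns the GLI proteins into activators of transcription. Gli1, Ptch1 and Hhip are themselves textbook targets of the pathway, so that their transcripts are commonly read as a sign of a response. In the ovary, the ligands are known from granulosa cells and the response from the stroma around follicles, from which steroid-producing theca cells arise.

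The material was whole ovary of CD1 mice at postnatal day 2, with no treatment or genetic change named in the labels. Each of the 2 single-cell RNA sequencing libraries pooled 6 ovaries of 3 pups, so that a library is the replicate and single pups cannot be told apart. Values are counts of unique molecular identifiers (UMIs), given as counts per 1000000 UMIs of that cell type in that library (CPM). The libraries held 4094 and 4847 cells with 54471790 and 59074480 UMIs, and 3642 and 4371 cells were kept after filtering.

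Cell types were set by marker genes that include none of the 8 Hedgehog genes, and 7189 of the 8013 kept cells fell into 1 type. With longer marker lists, 85.2% of these gated cells were given the same type. Granulosa-like cells (Foxl2, Fst and Wnt6) numbered 1521 in library 1 and 501 in library 2, and interstitial-like cells (Col1a2 and Dcn) 1357 and 2298. Germ-like cells (Ddx4, Dazl and Ooep) numbered 230 and 656, mesothelial-like cells (Upk3b) 143 and 234, perivascular-like cells (Rgs5) 43 and 43, endothelial-like cells 58 and 23, and immune-like cells 33 and 49. Further markers that the gates did not use were highest in their own type in both libraries for 4 of 4 interstitial, 5 of 5 mesothelial, 5 of 5 perivascular, 3 of 3 germ, 2 of 2 endothelial and 2 of 2 immune genes. For granulosa-like cells this held for 0 of 3 genes, since Irx3 was higher in mesothelial-like cells in both libraries, and in library 1 Kitl was higher in mesothelial-like and Bmp2 in immune-like cells. The gate gene Wnt6 stood at 408 and 417 CPM in granulosa-like cells and at 404 and 402 in mesothelial-like cells, whereas Fst stood at 768 and 405 against 41.3 and 44.9. Foxl2 was not absent from interstitial-like cells, at 94.2 and 137 CPM against 332 and 363 in granulosa-like cells.

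Both ligand genes read from the reverse strand, and the 250 bases before each RefSeq start (GRCm38.p6) are shown because the ligands are the Hedgehog genes that were higher in granulosa-like cells. The Dhh window lies at chr15:98898541-98898790 and the Ihh window at chr1:74951673-74951922, each directly upstream of the annotated gene and written 5′ to 3′ toward the start. Capitals mark the GC box GGGCGG on either strand.
Dhh: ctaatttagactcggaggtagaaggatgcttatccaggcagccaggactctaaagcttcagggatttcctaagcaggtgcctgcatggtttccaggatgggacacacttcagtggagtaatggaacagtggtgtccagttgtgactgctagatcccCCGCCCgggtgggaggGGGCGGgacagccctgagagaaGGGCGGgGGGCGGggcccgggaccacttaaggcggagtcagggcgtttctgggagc
Ihh: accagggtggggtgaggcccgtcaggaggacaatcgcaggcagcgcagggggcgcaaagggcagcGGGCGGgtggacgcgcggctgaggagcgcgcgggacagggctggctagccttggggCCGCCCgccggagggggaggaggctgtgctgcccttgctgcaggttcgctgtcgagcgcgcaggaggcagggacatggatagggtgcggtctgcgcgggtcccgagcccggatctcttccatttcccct
The Dhh window held 4 GC boxes and the Ihh window 2. The Gli3 and Hhip windows also held 2, those of Ptch1 and Gli2 held 1 and that of Smo 0, and at least 1 was present in 32.7% of 32851 RefSeq windows of the same length. The windows of 7 of the 8 genes were read, and none held the GLI motif GACCACCCA (present in 0.225% of all windows), the NR5A1 motif AAGGTCA (4.08%) or the forkhead motif GTAAACA (3.17%) on either strand. These are letter matches in 1 window per gene and say nothing of binding.

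Dhh, the ligand gene best known from the testis, lies on chromosome 15 (98891152 to 98898540, GRCm38). It was found mostly in granulosa-like cells, with 224 UMIs in library 1 and 71 in library 2, or 12.2 and 10.9 CPM (11.5 ± 0.89, SD, n = 2). Interstitial-like cells held 3 and 0 Dhh UMIs among 1357 and 2298 cells, or 0.30 and 0 CPM. The granulosa and interstitial values were far apart in both libraries. Of the Dhh UMIs in gated cells, granulosa-like cells gave 92.9% in library 1 and 75.5% in library 2, and germ-like cells, the deepest cells of the data, gave 3.73% and 20.2%. Germ-like cells reached 0.54 and 0.70 CPM, and perivascular-like and immune-like cells held 0 Dhh UMIs. The endothelial-like level of 2.19 and 3.31 CPM rested on 2 and 1 UMIs.

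The gene model of Dhh overlaps that of Rhebl1 on the same strand over 3389 bases, so that reads of the shared stretch cannot be told apart by position. Rhebl1 did not follow Dhh. It stood at 85.8 and 84.5 CPM in germ-like cells and at 4.07 and 5.68 in granulosa-like cells.

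Ihh, the ligand better known from growing cartilage, lies on chromosome 1 (74945315 to 74951672). Granulosa-like cells held 79 and 20 Ihh UMIs, or 4.29 and 3.07 CPM (3.68 ± 0.86, SD, n = 2), and interstitial-like cells 3 and 2 UMIs. Granulosa-like cells thus stood above interstitial-like cells in both libraries. A single Ihh UMI among 43 perivascular-like cells of library 2 gave 4.61 CPM there, with 0 in library 1. Shh, the third ligand gene of the family, was seen as 1 UMI, in a germ-like cell of library 1.

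**Figure D1:**
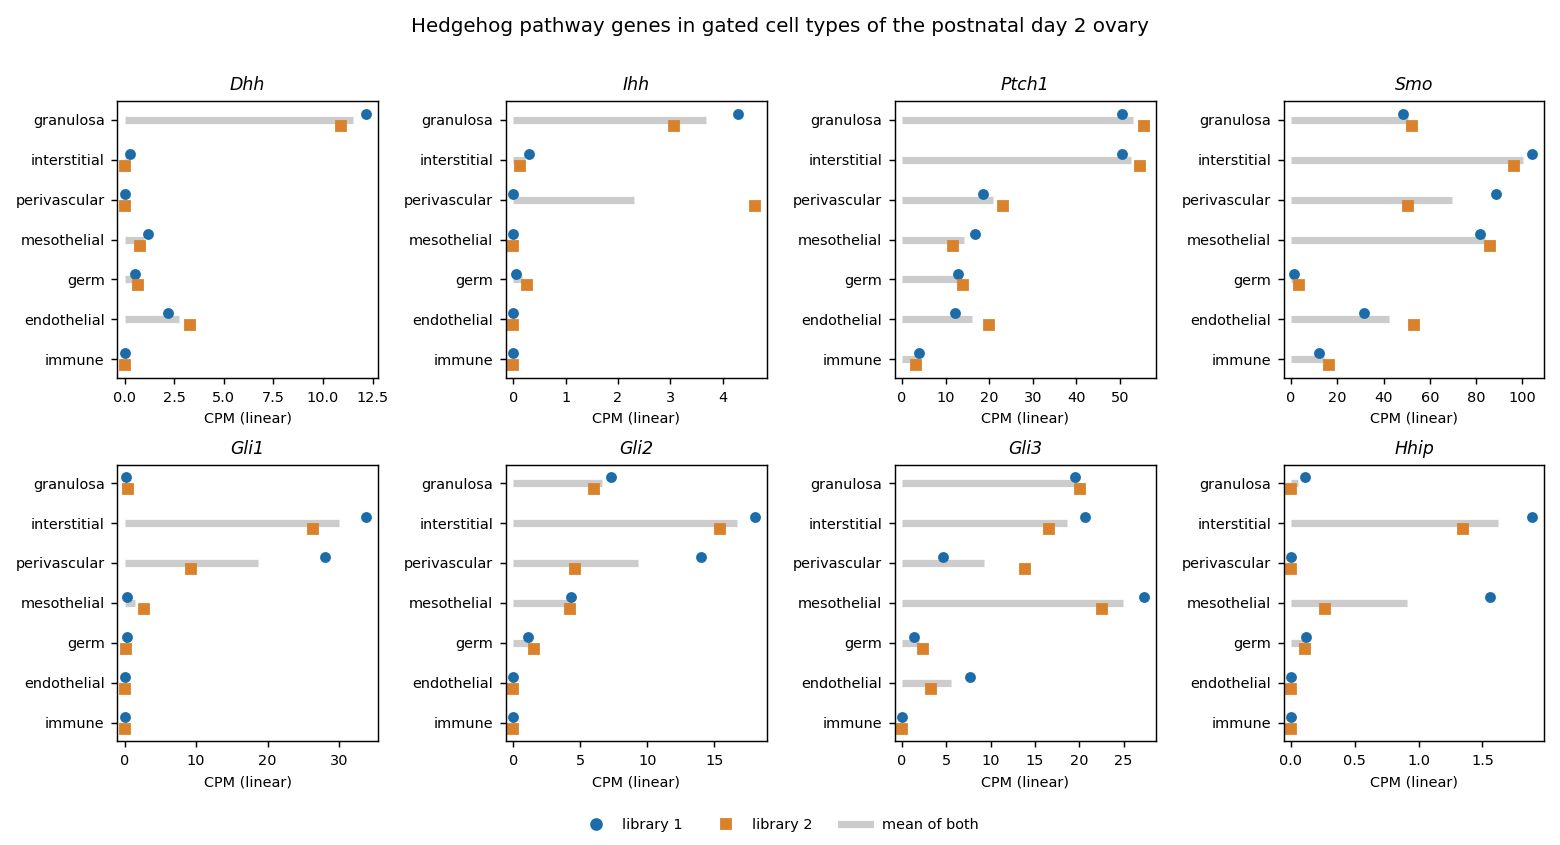
Level of each Hedgehog gene in CPM (linear axis, own range in each panel) in the 7 gated cell types, with library 1 as circles, library 2 as squares and grey bars to the mean of both. Dhh is highest in granulosa-like cells, Gli1, Gli2 and Hhip are highest on the mean in interstitial-like cells, and Ptch1 is near 50 in both; the Ihh value of perivascular-like cells is 1 UMI.

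Ptch1, the receptor gene (chromosome 13, 63508328 to 63573598), had near-equal levels in granulosa-like and interstitial-like cells. Its level was 50.5 and 55.4 CPM in granulosa-like cells (930 and 361 UMIs) and 50.3 and 54.5 in interstitial-like cells (506 and 810 UMIs). The ranges of both types overlapped, and the next type in order, perivascular-like cells at 18.6 and 23.1 from 4 and 5 UMIs, lay below both. The summed CPM of 6 interstitial markers was 182 and 234 in granulosa-like cells and 11234 and 10754 in interstitial-like cells. These 6 include the gate genes Col1a2 and Dcn, so the gates partly fix this contrast. Endothelial-like, mesothelial-like and germ-like cells had overlapping ranges between 11.7 and 19.9 CPM, and immune-like cells were lowest at 3.99 and 3.25.

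In germ-like cells, which include the oocytes, Ptch1 stood at 12.9 and 14.0 CPM, which was 25.6% of the interstitial level in each library. Gli1 in the same cells stood at 1.08% and 0.837% of its interstitial level, and the stromal genes Col1a2 and Dcn at between 0.239% and 0.692% of theirs, although the gates themselves cap these last genes. The granulosa genes Foxl2, Fst and Wnt6, which the gates also cap, stood there at 2.36, 2.96 and 3.63 CPM in library 1. In library 2 they stood at 20.5, 19.5 and 18.7 CPM. How much of the germ-like Ptch1 was carried over from granulosa-like or interstitial-like cells was not tested.

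Smo, whose product carries the signal across the membrane (chromosome 6, 29735503 to 29761365), was highest in interstitial-like cells at 104 and 96.5 CPM. Mesothelial-like cells followed at 81.8 and 85.8 and granulosa-like cells at 48.5 and 52.3, and the values of these 3 types did not overlap. Perivascular-like cells, at 88.5 and 50.7, overlapped the mesothelial and granulosa ranges. Germ-like cells were lowest, at 1.51 and 3.49 CPM.

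Gli1, the GLI gene most tied to an active pathway (chromosome 10, 127329882 to 127341974), was found mostly in interstitial-like cells. Interstitial-like cells held 339 and 391 Gli1 UMIs, or 33.7 and 26.3 CPM (30.0 ± 5.24, SD, n = 2), which was 94.96% and 94.90% of the Gli1 UMIs of all gated cells. Granulosa-like cells held 5 and 3 UMIs, or 0.27 and 0.46 CPM. Perivascular-like cells reached 28.0 and 9.22 from 6 and 2 UMIs, overlapping the interstitial range, and endothelial-like and immune-like cells held 0. Gli1 shares its position with Arhgap9 on the opposite strand.

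Gli1 was detected in 19.8% and 14.4% of interstitial-like cells and in 0.263% and 0.599% of granulosa-like cells, although the granulosa-like cells were deeper (medians of 9978 and 9743 UMIs against 6553 and 5132). With every cell thinned to 2000 UMIs, the shares were 6.80% and 5.10% of interstitial-like cells and 0.132% and 0% of granulosa-like cells.

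Gli2, which encodes the main activating GLI factor (chromosome 1, 118834132 to 119053619), was also highest in interstitial-like cells, at 18.0 and 15.4 CPM against 7.28 and 5.99 in granulosa-like and 4.28 and 4.25 in mesothelial-like cells. Gli3, whose product acts largely as a repressor (chromosome 13, 15463235 to 15730026), had another order. Mesothelial-like cells led with 27.3 and 22.6 CPM, above the overlapping granulosa values of 19.5 and 20.1 and interstitial values of 20.6 and 16.6.

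Hhip, the ligand-binding inhibitor (chromosome 8, 79965851 to 80058006), was the rarest of the 8 genes, with 30 and 29 UMIs in all deposited cells. Interstitial-like cells held 19 of them in 9 cells of library 1 and 20 in 16 cells of library 2, or 1.89 and 1.35 CPM. Granulosa-like cells held 2 and 0 UMIs and mesothelial-like cells 4 and 1. The interstitial and mesothelial ranges overlapped.

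Types were compared with edgeR's quasi-likelihood test on UMIs summed per library and type, with Benjamini-Hochberg adjustment over all genes tested, and a gene was called at an adjusted p under 0.05 and over 2-fold. The 2 libraries are pools of pups, so a p-value rests on spread between pools and not between single pups. That spread was taken over all types or subsets of a fit and partly shared across genes. Types or subsets of the same library were treated as independent. A p-value therefore does not rest only on the spread of the gene and types compared. The comparison of granulosa-like with interstitial-like cells asked where ligand and response genes lie. Both ligands were higher in granulosa-like cells, Smo, Gli1 and Gli2 were lower, and 5 of the 7 Hedgehog genes tested were called where 27.1% of all 14152 genes were (14.5% higher, 12.6% lower). The low-count filter ran over all types of the fit, so Dhh, Ihh and Gli1 entered through types where they were higher. Ihh passed it only with the help of the perivascular-like level of library 2, which was 1 UMI. The genes were also chosen with earlier results of these data known. Here and in the later comparisons such counts therefore describe the genes and do not test them as a group. The median log2 fold change of the 7 genes was -0.06, and that of all genes was 0.

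Dhh was higher in granulosa-like cells by 6.30 on the log2 scale (SE 0.66, adjusted p = 1.37e-05). Because 1 library had 0 interstitial UMIs, the counts give a plainer size, 295 against 3 UMIs, a CPM ratio of 98.2 with an exact 95% counting interval of 33.3 to 479. Ihh was higher by 4.02 (SE 0.72, adjusted p = 0.00105). Gli1 was lower in granulosa-like cells by 6.52 (log2 fold change -6.52, SE 0.52, adjusted p = 1.77e-06), Gli2 by 1.38 (log2 fold change -1.38, adjusted p = 0.00272) and Smo by 1.06 (log2 fold change -1.06, adjusted p = 0.0039).

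Ptch1 and Gli3 were the 2 tested genes not called. The log2 fold change of Ptch1 was -0.06 with a 95% interval of -0.43 to 0.32 (adjusted p = 0.834), and that of Gli3 was 0.03 with an interval of -0.52 to 0.58 (adjusted p = 0.956). For both genes a 2-fold difference lay outside the interval. Hhip had too few counts for the test. Its 39 interstitial against 2 granulosa UMIs give a ratio of 19.5 with a counting interval of 5.05 to 167. That interval pools both libraries and takes each UMI as independent, whereas the 19 interstitial UMIs of library 1 lay in 9 cells.

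**Figure D2:**
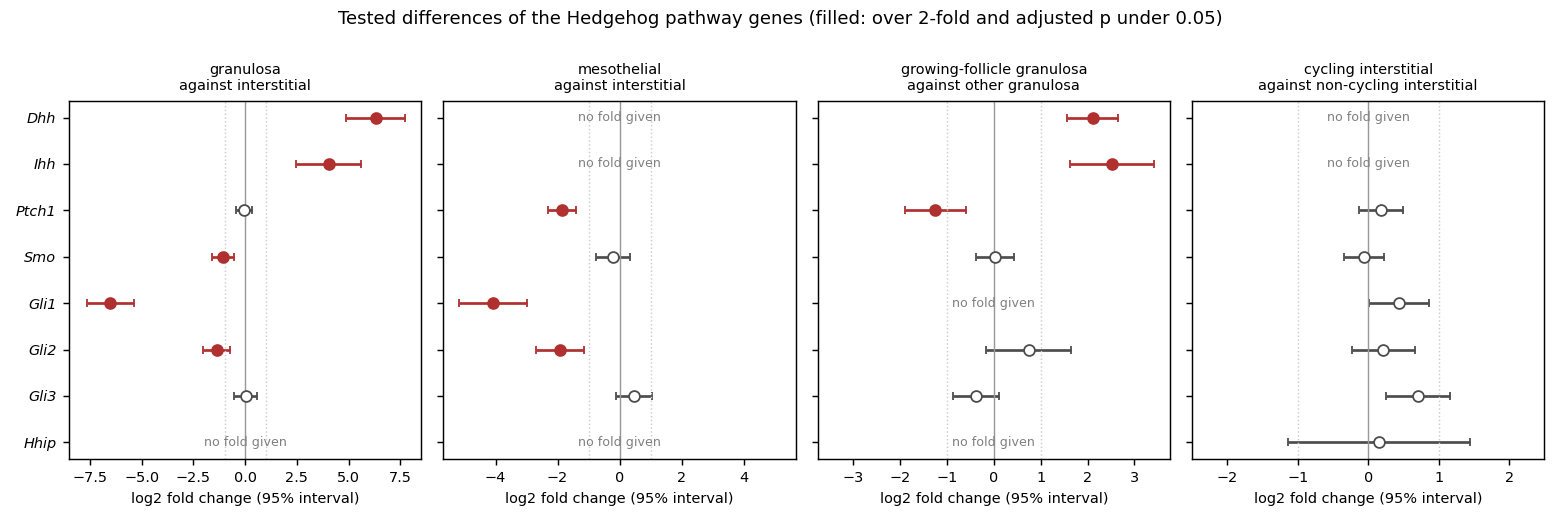
Log2 fold changes with 95% intervals from the edgeR fit for the Hedgehog genes in 4 comparisons, with filled red points for called genes and open points for the others; dotted lines mark 2-fold. Genes with counts too low for the test, or with at most 3 UMIs per library in both groups, have no fold. Dhh and Ihh lie to the right and Gli1 to the left in the comparison of granulosa-like with interstitial-like cells, with Ptch1 and Gli3 near 0.

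Germ-like cells differed from granulosa-like cells in most genes. Of the 7 tested Hedgehog genes 6 were lower in germ-like cells, where 30.6% of all genes were lower, 26.8% were higher and 57.4% were called in either direction. Smo was lower by 4.23 (log2 fold change -4.23, SE 0.30) and Ptch1 by 1.95 (log2 fold change -1.95, SE 0.18). Gli1 was not called, with 6 and 6 UMIs in germ-like and 5 and 3 in granulosa-like cells.

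Mesothelial-like cells, the surface layer of the ovary, lacked most of the interstitial Gli1. Of the 7 tested genes 3 were lower than in interstitial-like cells, where 10.3% of all genes were lower and 12.3% were higher (22.5% called). Gli1 stood at 1 and 10 UMIs, a log2 fold change of -4.08 (SE 0.50, adjusted p = 6.51e-05). Ptch1 had a log2 fold change of -1.86 (adjusted p = 1.23e-05) and Gli2 of -1.91 (adjusted p = 0.0014). Smo (-0.21, 95% interval -0.75 to 0.34) and Gli3 (0.47, SE 0.27) were not called. Dhh, with 3 and 3 UMIs against 3 and 0, and Ihh, with 0 and 0 against 3 and 2, were tested and not called. With at most 3 UMIs per library on both sides, no fold is given for them.

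Perivascular-like cells differed from interstitial-like cells in 1 of 7 tested Hedgehog genes, against a background of 5.27% of all genes (2.13% lower, 3.14% higher), and all genes together had a median log2 fold change of -0.25 in this comparison. Ptch1 had a log2 fold change of -1.39 (SE 0.36, adjusted p = 0.0381), which rested on 4 and 5 UMIs. The call was lost with DESeq2 (adjusted p = 0.0964), with longer marker lists (log2 fold change -0.47, adjusted p = 0.488) and with thinned cells (adjusted p = 0.332). Gli1 was not called (-0.75, 95% interval -2.11 to 0.61).

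Granulosa-like cells were split by further markers into cells with Amh or Inhbb, genes of growing follicles (402 and 77 cells), and several kinds without them. Dhh stood at 26.8 and 29.0 CPM in growing-follicle cells. In pregranulosa cells with Lgr5 or Aldh1a1 it stood at 8.74 and 6.75, and in those with Colec11 or Pld5 at 0.77 and 2.62. The ranges of these subsets did not overlap. Ihh stood at 10.1 and 10.2 CPM in growing-follicle cells, at 0.70 and 1.04 in Lgr5 or Aldh1a1 cells, and at 0 and 0.44 in Colec11 or Pld5 cells. Cells with Serpina1 genes or Calb1 stood at 7.25 and 5.37 CPM of Dhh, overlapping the Lgr5 or Aldh1a1 cells, and at 2.58 and 7.16 of Ihh. These Ihh values rested on 16 and 4 UMIs, those of Lgr5 or Aldh1a1 cells on 2 and 2. The Ihh values of Colec11 or Pld5 cells rested on 0 and 1 UMIs.

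Ptch1 had another order. It stood at 84.5 and 81.3 CPM in Colec11 or Pld5 cells, at 59.4 and 59.2 in Lgr5 or Aldh1a1 cells, at 51.7 and 51.9 in cells with Serpina1 genes or Calb1, and at 31.2 and 14.5 in growing-follicle cells. Cycling cells stood at 32.2 and 27.5 CPM of Ptch1 and the cells left in no subset at 42.8 and 25.3. On the mean of both libraries, the subset lowest in both ligands was the one highest in Ptch1, but the subsets between did not follow 1 order. For Ihh this rested on few UMIs, and in library 2 cycling cells held 0. Cycling granulosa-like cells were few (43 and 17) and their Dhh values of 6.71 and 19.6 rested on 5 UMIs each. The cells left in no subset (84 and 45) stood at 7.77 and 31.6 CPM of Dhh, from 6 and 10 UMIs, a range that overlapped that of the growing-follicle cells.

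**Figure D3:**
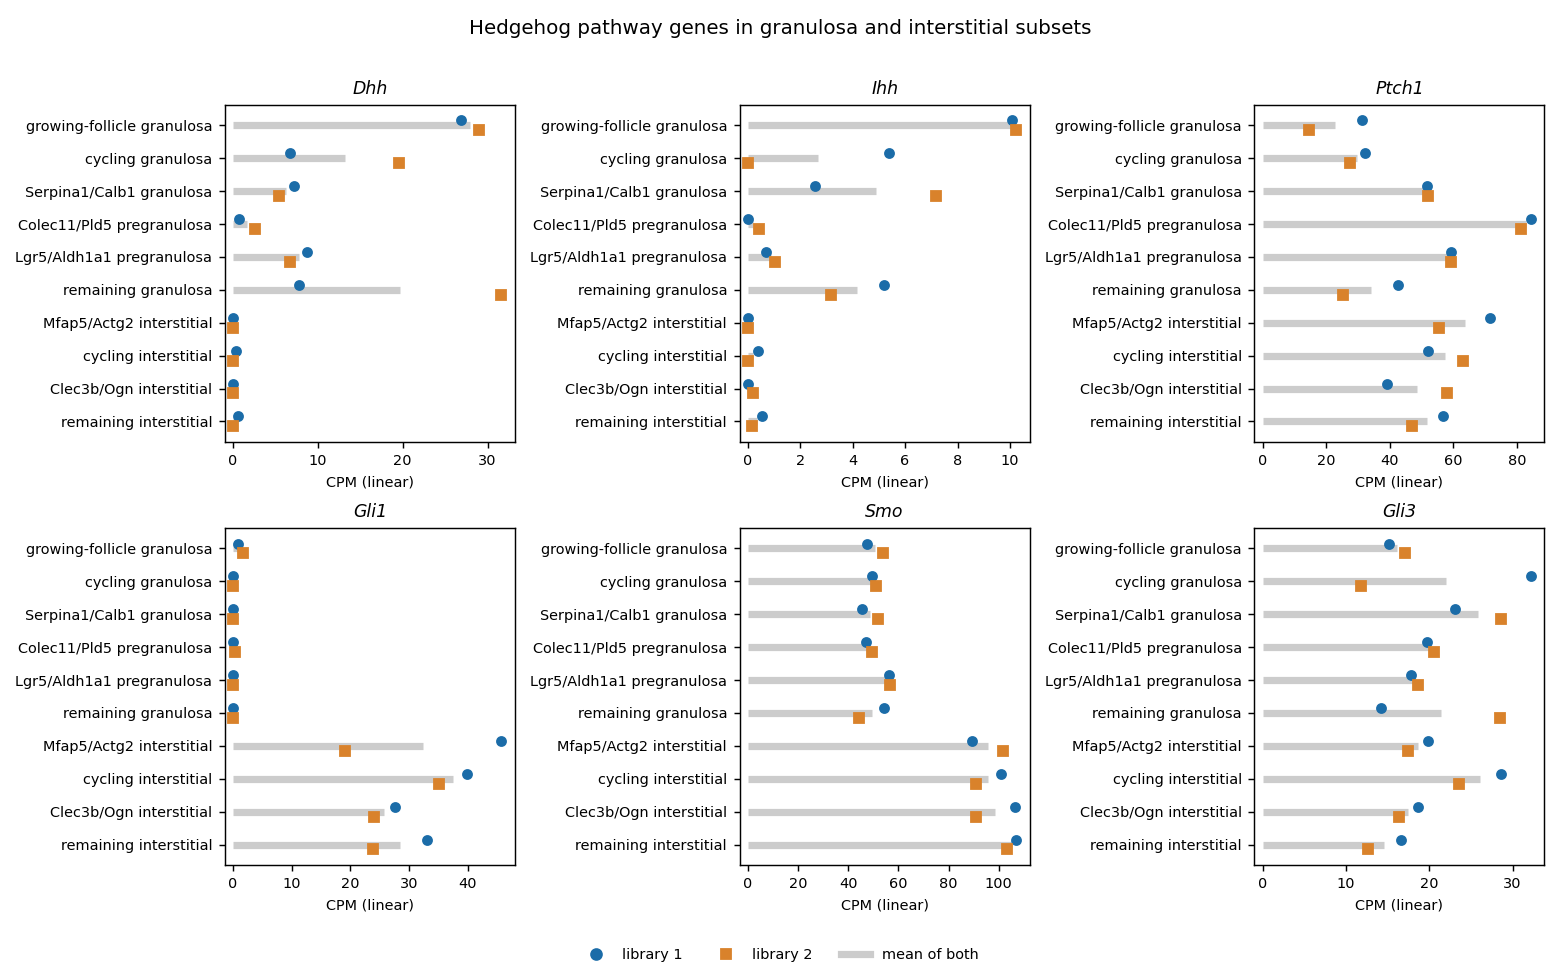
Level of 6 Hedgehog genes in CPM (linear axis) in 6 granulosa-like and 4 interstitial-like subsets, with library 1 as circles, library 2 as squares and grey bars to the mean. Dhh and Ihh are near 28 and 10 in growing-follicle cells, Ptch1 is highest in Colec11/Pld5 pregranulosa cells at above 80, and Gli1 is at or near 0 in every granulosa-like subset; small subsets such as cycling and remaining granulosa cells have wide spreads.

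Growing-follicle cells were compared with all other granulosa-like cells (1119 and 424 cells). Dhh and Ihh were higher and Ptch1 was lower, 3 of 6 tested Hedgehog genes where 6.67% of 11923 genes were called (3.50% higher, 3.17% lower). Dhh had 141 and 34 UMIs against 83 and 37, a log2 fold change of 2.11 (SE 0.23, adjusted p = 0.00387). Ihh had 53 and 12 UMIs against 26 and 8, a log2 fold change of 2.53 (SE 0.38, adjusted p = 0.0105). A doubled gate threshold lost its call (1.64, adjusted p = 0.0532). Ihh passed the low-count filter of this fit through the growing-follicle cells, where it was higher.

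Ptch1 had 164 and 17 UMIs against 766 and 344, a log2 fold change of -1.25 (SE 0.28, adjusted p = 0.0369). The direction held in both libraries, at -0.86 in library 1 and -2.11 in library 2, and with thinned cells the call was lost (log2 fold change -0.997, adjusted p = 0.161). Smo did not pass the test (0.02, 95% interval -0.39 to 0.43), nor did Gli3 (-0.38, -0.88 to 0.12) or Gli2 (0.74, -0.16 to 1.65). Growing-follicle cells had medians of 11353 and 11426 UMIs against 9417 and 9183 in the others.

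Markers of other types moved with this split, in both directions. The summed CPM of 6 interstitial markers was 143 and 166 in growing-follicle cells against 198 and 248.7 in the others, and that of 6 mesothelial markers was 2.66 and 11.1 against 13.3 and 46.8. That of 6 perivascular markers was higher, at 9.89 and 23.0 against 5.01 and 11.8. Their part in the Ptch1 result, and in that of the co-receptors, was not tested. Of the 8 Gli1 UMIs in granulosa-like cells, 5 and 2 lay in growing-follicle cells and 0 and 1 in the others, too few to test.

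Within interstitial-like cells Gli1 was spread over every subset. It stood at 27.6 and 24.0 CPM in cells with Clec3b or Ogn, at 45.8 and 19.0 in cells with Mfap5 or Actg2, at 39.9 and 35.2 in cycling cells, and at 33.1 and 23.9 in the rest. The ranges of the Mfap5 or Actg2 cells, 70 and 85 in number, overlapped all others. Between Mfap5 or Actg2 and Clec3b or Ogn cells edgeR called 0 of 5 tested Hedgehog genes, against 1.70% of all genes (1.55% higher, 0.149% lower). At an unadjusted p under 0.05 the count was also 0, where 1087 of all 10063 genes passed. DESeq2 called 0 Hedgehog genes. Gli1 had a log2 fold change of 0.25 (95% interval -0.54 to 1.04), so a 2-fold difference lay inside the interval. Each cell entered only 1 subset, and some cells that passed the cycling gate lay outside the cycling subset. Their part in this comparison was not tested.

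All interstitial-like cells that passed the cycling gate (Mki67 or Top2a) were compared with the others. They held 111 and 123 Gli1 UMIs, against 106 and 121 in the cycling subset above, which left out cells placed in another subset. Here edgeR and DESeq2 each called 0 of 6 tested Hedgehog genes against an edgeR background of 5.35% (4.77% higher, 0.583% lower). At an unadjusted p under 0.05 there were 2 Hedgehog genes, where 2713 of all 11662 genes passed. The 2 were Gli3 and Gli1, both higher in cycling cells. Gli3 had a log2 fold change of 0.70 (95% interval 0.25 to 1.15, adjusted p = 0.0658). That of Gli1 was 0.44 (0.01 to 0.87, adjusted p = 0.210). Ptch1 had a log2 fold change of 0.18 (-0.13 to 0.49).

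Theca precursors could not be gated as a group of their own. Cyp17a1 and Cyp11a1, genes of steroid enzymes found in theca cells among others, had 0 UMIs in interstitial-like cells of both libraries. Star, which brings cholesterol into mitochondria, had 7 and 14. Cyp17a1 had 20 and 13 UMIs in granulosa-like cells, too few for the test. Of the 7 listed steroid genes 3 were tested and all 3 were higher in granulosa-like than in interstitial-like cells, where 14.5% of all genes were higher, led by Hsd3b1 (107 and 69.2 against 1.99 and 0.47 CPM, log2 fold change 6.22). At the depth of the interstitial-like cells a count of 0 allows up to 0.299 and 0.202 CPM.

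In interstitial-like cells, Ptch1 was seen in 42.4% and 43.8% of cells with a Gli1 UMI and in 21.1% and 18.3% of cells without. Deeper cells show more of every gene, and with each cell thinned to 2000 UMIs the shares were 13.04% against 8.56% in library 1 and 6.90% against 8.16% in library 2. Among cells with a Gli1 UMI, the thinned shares rested on 12 of 92 cells in library 1 and 8 of 116 in library 2. At equal depth the order differed between the libraries. Counts this small do not settle whether Ptch1 and Gli1 go together in a cell.

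A list of 45 further genes of the pathway was read in the comparison of granulosa-like with interstitial-like cells. The co-receptors, which help ligand reach PTCH1, were lower in granulosa-like cells in 2 of 4 cases and higher in 0. Of all genes 12.6% were lower and 14.5% higher. The median log2 fold change of the 4 co-receptors was -0.96, against 0 for all genes. Lrp2 enters this median with a fold from 2 and 0 against 0 and 0 UMIs, so the median is a loose summary. Gas1 stood at 39.1 and 62.5 CPM in granulosa-like and 312 and 342 in interstitial-like cells (log2 fold change -2.77, adjusted p = 0.000214). Boc stood at 6.90 and 11.8 against 38.4 and 37.6 (log2 fold change -2.15, adjusted p = 0.000129). Cdon was not called (0.23), nor was Lrp2, with 2 and 0 UMIs against 0 and 0.

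Of 7 genes for ligand processing and release, 5 were tested and 1 was lower, Scube2, whose product helps free the lipid-bearing ligand from its cell. It stood at 0.81 and 3.53 CPM in granulosa-like and 25.8 and 38.4 in interstitial-like cells (log2 fold change -4.24, adjusted p = 6.98e-05). Of 21 transduction genes 1 was higher, Stk36 (1.74), and 1 was lower, and of 6 cilium transport genes 1 was lower. Over all genes 27.1% were called, and 1 of 5, 2 of 21 and 1 of 6 are small counts near or below that share. Nothing about these lists is read from them. The medians of the transduction and cilium transport lists were -0.05 and -0.21 on the log2 scale.

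Of 7 genes known as targets in other tissues, 5 were tested, 2 were lower and 1 was higher. The shares over all genes were 12.6% lower and 14.5% higher. Nr2f2, a nuclear receptor of stroma, stood at 14.8 and 36.8 CPM in granulosa-like and 331 and 439 in interstitial-like cells (log2 fold change -4.00, adjusted p = 3.5e-05). Foxf1 was called lower from 1 and 0 UMIs against 4 and 5. Mycn was higher in granulosa-like cells, at 55.7 and 57.2 against 11.2 and 13.5 (log2 fold change 2.12, adjusted p = 0.00012). The list thus did not move as 1 group.

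**Figure D4:**
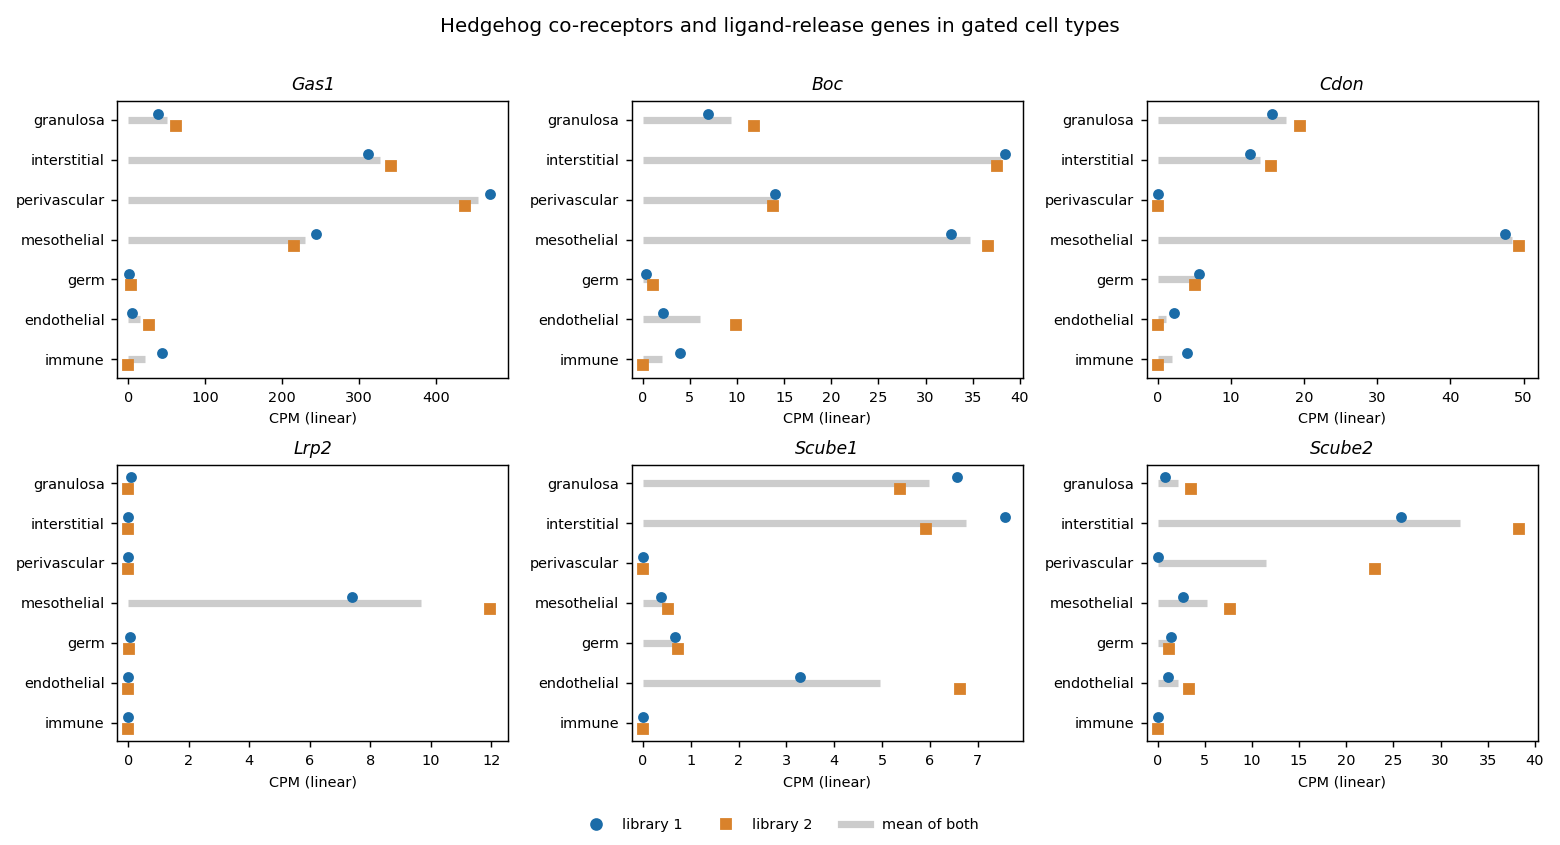
Level in CPM (linear axis) of the co-receptor genes Gas1, Boc, Cdon and Lrp2 and the ligand-release genes Scube1 and Scube2 in the 7 gated types, drawn as library 1 circles, library 2 squares and grey bars to the mean. Gas1 and Boc are low in granulosa-like and high in interstitial-like and mesothelial-like cells, and Cdon is highest in mesothelial-like cells at 47.5 and 49.4; perivascular-like values rest on few cells.

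In mesothelial-like cells 2 of the 4 co-receptor genes were higher than in interstitial-like cells and 0 were lower, where 12.3% of all genes were higher and 10.3% lower. Cdon stood at 47.5 and 49.4 CPM against 12.6 and 15.5 (log2 fold change 1.83, adjusted p = 5.76e-05). Lrp2 had 19 and 45 UMIs in mesothelial-like cells and 0 in interstitial-like cells of both libraries.

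Within granulosa-like cells all 3 tested co-receptor genes were lower in growing-follicle cells than in the others, where 3.17% of all genes were lower. Boc stood at 1.52 and 2.56 CPM against 9.04 and 13.8 (log2 fold change -2.64, adjusted p = 0.0193). Gas1 stood at 20.5 and 17.9 against 46.5 and 72.2 (log2 fold change -1.56, adjusted p = 0.0174) and Cdon at 9.13 and 10.2 against 18.2 and 21.5 (log2 fold change -1.03, adjusted p = 0.0489). Of the 7 genes for ligand processing and release, 1 was higher, 0 were lower, 3 were not called and 3 were not tested. Of all genes 3.50% were higher. The median log2 fold change of the tested genes of this list was -0.41. The gene called was Scube1, named after its values were seen. It stood at 13.3 and 16.2 CPM against 3.87 and 2.99 (log2 fold change 2.07, adjusted p = 0.0117). Scube2 had 2 and 0 UMIs against 13 and 23.

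Across the 14 values of 7 types in 2 libraries, the genes whose log2 levels ran most like Gli1 were Fibin (Pearson r = 0.97) and Gdf10 (0.97), of 11047 genes compared. For Dhh they were Akr1c14 (0.91), Myo1e (0.90) and Kcnq1 (0.88), and Fxyd6 (0.94) and P3h1 (0.92) were among those for Ptch1. The points share libraries and depth, and the coefficients are descriptions of these samples.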

How the data were processed

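Single-cell RNA sequencing libraries of CD1 ovaries were analysed from the UMI counts that the authors deposited, whole numbers per gene and cell with no normalization. The submitters' processing notes name Cell Ranger 3.0.2 and GRCm38. The labels and the methods name different versions of the 10x reagent kit, and the counts do not settle which was used. Barcodes with under 500 genes or over 10% mitochondrial UMIs were dropped, and Scrublet (scanpy 1.11.5, expected share 0.05) removed 96 and 93 likely doublets at the score threshold set automatically in library 1, applied to both after the scores were seen. The libraries shared 21 cell barcodes. Cells were gated on summed marker UMIs per 10000 (granulosa 6, interstitial 16, perivascular 4, mesothelial 2, germ 4, endothelial 4, immune 4). A cell passing the perivascular gate was not counted as interstitial, and 1 passing the mesothelial gate was not counted as granulosa. Cells that then passed more than 1 gate (450), none (356) or the erythroid gate (18) were left out. Subsets needed at least 2 UMIs and 2 per 10000 of their markers. A cell that met the rule of more than 1 subset was placed in 1 by a set order.

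UMIs were summed per library and type and tested with edgeR 4.0.16 (filterByExpr, TMM, quasi-likelihood F test) in 1 fit of all 7 types, or in 1 fit of the 2 subsets compared. The fit was also run on simulated counts. These were drawn independently for each library and type, so the run did not test the effect of pairing types within a library. Alternatives were DESeq2 1.42.0, no filter, kept doublets, doubled gates, longer marker lists, cells thinned to 2000 UMIs, the library as replicate block, and each library alone. Types of 1 library come from the same pups, which pairs them, and deviations from the type means correlated between types at 0.00285 to 0.276. Counting intervals are exact at 95% and cover counting error only. The members and lists were chosen with earlier results of these data known. The 8 Hedgehog genes were always named. Of the 45 other pathway genes, up to 5 with the largest folds in each direction between granulosa-like and interstitial-like cells were named, plus Cdon, Lrp2 and Scube1, chosen after their values were seen, as was the GC box motif after the windows. Some listed genes are not reported here. Gene positions come from the GENCODE M21 annotation of GRCm38 and windows from RefSeq.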

Additional observations from a re-analysis of the deposited data

How the results depend on the processing

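In the comparison of granulosa-like with interstitial-like cells, 5 or 6 Hedgehog genes were called with DESeq2, no low-count filter, kept doublets, doubled gates, longer marker lists and the replicate block. With cells thinned to 2000 UMIs only Ptch1 and Smo passed the low-count filter, and 1 was called (1973 of all genes, against 3842). Thinning likewise gave 2 Hedgehog genes against 6 (4330 of all genes against 8123) for germ-like against granulosa-like cells, 1 against 3 (1544 against 3190) for mesothelial-like against interstitial-like cells, and 1 against 3 (209 against 795) for growing-follicle cells, and it left 90 of all genes against 171 between Mfap5 or Actg2 and Clec3b or Ogn cells. For perivascular-like cells DESeq2, longer lists and thinning gave 0 Hedgehog genes against 1, and all genes called were 1245 with no filter and 221 with longer lists against 746. No filter gave 1375 of all genes for growing-follicle cells and 303 for Mfap5 or Actg2 cells. The replicate block gave 1329 and 324, and it changed no call of a Hedgehog gene. The cause of these shifts was not tested, other than the filter under thinning. Each library alone gave log2 fold changes between granulosa-like and interstitial-like cells of 5.19 to 9.32 for Dhh, where 1 library had 0 interstitial UMIs, and of -6.94 to -5.84 for Gli1, and between mesothelial-like and interstitial-like cells of -6.33 to -3.24 for Gli1. Dhh between mesothelial-like and interstitial-like cells, at most 3 UMIs per library in each, was called under 3 alternatives (DESeq2, no filter, doubled gates). No difference of a called Hedgehog gene changed sign. With 2 libraries, 1 left out allows no test. Hhip, Ihh and the perivascular-like values are limited by counts of a few UMIs.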

Other observations

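Cells that passed no gate, 176 in library 1 and 180 in library 2, held Ptch1 at 39.4 and 56.2 CPM, Smo at 55.7 and 65.5 and Gli1 at 3.13 and 1.16. Dhh stood there at 3.75 and 5.22 CPM, from 6 and 9 UMIs. Cells that passed more than 1 gate, 80 in library 1 and 370 in library 2, held Ptch1 at 43.3 and 29.5 CPM. Gli1 stood at 10.5 and 10.9 CPM in these mixed cells, from 8 and 21 UMIs. Their Ihh level was 7.87 and 0.52 CPM, from 6 and 1 UMIs, and their Dhh level 1.31 and 1.55 CPM, from 1 and 3.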
